A study of Mus musculus with 20 samples.

Results

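The MYC, MAX and MXD network was followed as 10 genes: Myc and Mycn, their shared partner Max, the MAX-binding antagonists Mxd1, Mxd3, Mxd4, Mxi1, Mnt and Mga, and the MAX-like gene Mlx. The members were chosen by symbol, to compare the timing of activators and antagonists, and each was matched to its Ensembl gene identifier. They are 10 of the 56239 genes counted. Of these 10, 9 reached the minimum of 10 counts in 2 libraries that testing required, as did 16601 genes in all, and Mycn did not.

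MYC proteins bind DNA as heterodimers with MAX at E-box sites and activate transcription, above all of genes for ribosome production, nucleotide synthesis and metabolism. The MXD proteins (MXI1 is one of them) and MNT pair with the same MAX and bring the SIN3 histone deacetylase corepressor to the same sites, and MGA pairs with MAX inside a variant Polycomb complex. MLX dimerises with some of these repressors and with the glucose-responsive factors MLXIP and MLXIPL, which links the network to nutrient supply. In B-cell precursors MYC is known to drive the growth and division of large pre-B cells, and its level falls as cells become small resting pre-B cells.

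All libraries came from B3, a mouse pre-B cell line carrying the retroviral Ikaros-ERt2 construct, in which Ikaros (IKZF1), a lymphoid zinc-finger repressor, moves into the nucleus when 4-hydroxytamoxifen (4-OHT) is added. Chromatin-bound nascent RNA was sequenced with no treatment (0 h) and after 500 nM 4-OHT for 0.5, 1, 2, 6, 12, 15, 18, 21 and 24 h, with 2 libraries per time point and 20 in all. Every library carries the construct and the uninduced libraries received no 4-OHT, so induction of Ikaros, the drug itself and time in culture cannot be told apart. The sources used here do not say whether the line was 1 clone or whether the 2 libraries came from separate cultures, so p-values measure only the spread between these libraries.

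Library totals ran from 33296158 to 46868954 counts, with a median of 40943260. A floor of 3 counts then equals 0.0621 to 0.102 CPM, the count scaled to library size with trimmed-mean factors. The 2 libraries of 12 h and those of 18 h differed from each other more than other pairs did, with a chi-square per degree of freedom of 9.04 and 13.4. The pair of 21 h stood at 4.42 and the other pairs at 1.24 to 2.43. Of 12 pre-B markers, Rag1 and Rag2 were listed at 0 in every library, and the 12 summed to 8303 to 16490 CPM per library, while T-cell markers summed to 0.38 to 1.44 CPM, myeloid to 2.34 to 7.32 CPM, erythroid to 0.173 to 0.677 CPM and fibroblast to at most 0.194 CPM. In bulk RNA such as this, fewer cells expressing a gene and less RNA per cell cannot be told apart.

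The sequences below show where the binding letters of the 2 factor families lie at the network's own genes. RefSeq promoter windows (GRCm38.p6, 250 bases before to 50 bases after a start) were found for 9 of 10 members, all but Myc. The palindromic E-box CACGTG, the site of MYC-MAX and MXD-MAX dimers, lay in a window of 4 of those 9 members, and 7.15% of all 32851 windows hold it. These 4 E-boxes are shown with the bases around them, in capitals, on each gene's own strand; the E-box begins 219 bases before the start of Mxd4, 123 before Mnt, 40 before Mlx and 3 before Max.
Mxd4, chr5:34187912-34187941, minus strand: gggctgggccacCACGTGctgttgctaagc
Mnt, chr11:74830789-74830818, plus strand: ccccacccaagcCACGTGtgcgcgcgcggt
Mlx, chr11:101087238-101087267, plus strand: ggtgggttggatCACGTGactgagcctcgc
Max, chr12:76962234-76962263, minus strand: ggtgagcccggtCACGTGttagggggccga

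The core of the Ikaros-family site, GGGAA or its complement TTCCC, lay in a window of 5 of 9 members (Mxd1, Mnt, Mycn, Mxd3 and Mxi1), and 62.7% of all windows hold it. The longer form TGGGAA or TTCCCA lay in those of Mxd3 and Mxi1, 2 of 9 members, and in 25.6% of all windows. For the 2 members that rose more than 2-fold, the first 200 bases of the window are given, which stop 50 bases short of the start, with the Ikaros core letters in capitals for Mxi1 and the E-box in capitals for Mxd4. These matches of letters are a description and no evidence of binding.
Mxi1, chr19:53310256-53310455, plus strand: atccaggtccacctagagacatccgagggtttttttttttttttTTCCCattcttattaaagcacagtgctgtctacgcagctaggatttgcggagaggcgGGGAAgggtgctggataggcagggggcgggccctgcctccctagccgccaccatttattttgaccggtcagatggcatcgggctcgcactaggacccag
Mxd4, chr5:34187761-34187960, minus strand: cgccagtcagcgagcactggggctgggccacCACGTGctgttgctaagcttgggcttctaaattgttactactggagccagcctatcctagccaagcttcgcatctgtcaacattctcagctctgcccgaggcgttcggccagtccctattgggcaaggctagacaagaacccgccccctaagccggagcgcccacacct

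To set members side by side, levels were divided by the length of the gene body, introns included, since reads of introns were counted. On this measure Myc was the highest member in uninduced cells, at 12.6 CPM per kb ± 0.212 (SD, n = 2). Max followed at 3.95 CPM per kb ± 0.0576 (SD, n = 2) and Mga at 2.71 CPM per kb ± 0.0443 (SD, n = 2). Mnt at 1.89 and Mlx at 1.85 CPM per kb differed by less than the spread of the 2 Mlx libraries. Mxd4 lay at 1.49, Mxd3 at 1.21, Mxd1 at 0.599 and Mxi1 at 0.230 CPM per kb. At 24 h the order had changed: Mxd4 led at 15.0 CPM per kb ± 0.0791 (SD, n = 2), Mxi1 had moved from the ninth place to the fourth at 1.78 CPM per kb ± 0.0070 (SD, n = 2), and Myc had moved from the first to the seventh at 0.997 CPM per kb ± 0.163 (SD, n = 2). This order depends on the length used, and levels per exon length were not computed. Without division by length, Mga was the highest member at 0 h (196.3 CPM, Myc 62.9 CPM) and at 24 h (216.4 CPM, Mxd4 207.1 CPM).

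Over the time course 4 of the 9 tested members changed, namely Myc, Mxd3, Mxd4 and Mxi1, by edgeR's quasi-likelihood test at a Benjamini-Hochberg adjusted p under 0.01 with more than 2-fold change at any time point. By the same rule 51.9% of the 16601 genes changed, so the share of members was near the background. All 9 passed the adjusted p alone, as did 88.0% of genes. Of 81 pairs of member and time point, 63 passed against 0 h and 21 also exceeded 2-fold. The members passing numbered 3 at 30 min (8.44% of all genes passed), 8 at 1 h (36.3%), 7 at 2 h (47.7%), 7 at 6 h (57.2%), 7 at 12 h (60.7%), 6 at 15 h (65.7%), 8 at 18 h (71.3%), 9 at 21 h (71.6%) and 8 at 24 h (71.5%). Leaving out 1 library ended 15 of the 63 calls, all of them changes below 2-fold. These comparisons share the 2 uninduced libraries.

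Myc (chr15:61985391-61990374, plus strand), the founding activator of the network, fell at once, paused, and fell again. It stood at 63.6 and 62.1 CPM in the uninduced libraries and at 30.6 and 29.6 CPM after 30 min. The level then stayed at 31.3 and 29.2 CPM at 1 h, 27.55 and 26.7 CPM at 2 h, and 34.0 and 30.7 CPM at 6 h. These 8 libraries did not overlap the uninduced pair and lay between 26.7 and 34.0 CPM.

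From 12 h the Myc level went down a further time, to 22.3 and 28.2 CPM at 12 h, 18.05 and 19.0 CPM at 15 h and 12.4 and 9.635 CPM at 18 h. It ended at 6.14 and 6.595 CPM at 21 h and 5.545 and 4.395 CPM at 24 h. Every induced library lay below both uninduced ones, and those of 15 h and later lay below all earlier ones.

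On the log2 scale Myc differed from 0 h by -1.06 ± 0.0896 (SE) at 30 min, with an adjusted p of 3.11e-08 by edgeR's quasi-likelihood test. It was the single member called at 30 min (past the adjusted p and 2-fold), where 0.464% of all genes were called. The same held at 1 h, beside 7.16% of genes, and at 2 h, beside 13.2%. At 6 h the Myc change of -0.96 ± 0.0884 (SE) passed the adjusted p but fell short of 2-fold, and without replicate 1 of 6 h it exceeded it. By 24 h the difference was -3.67 ± 0.116 (SE), a 12.7-fold lower level, with an edgeR adjusted p of 1.54e-17. Leaving out any single library ended none of the 9 comparisons of Myc with 0 h.

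Step by step, the Myc plateau was not broken by any change that passed: 30 min to 1 h gave a log2 difference of 0.01, 1 h to 2 h gave -0.16 and 2 h to 6 h gave 0.25, with edgeR adjusted p of 0.954, 0.213 and 0.0315. Without the libraries of 12 h and 18 h, the last of these had an edgeR adjusted p of 7.49e-05. Myc then fell at each step, with log2 differences of -0.35 from 6 h to 12 h, -0.45 to 15 h, -0.74 to 18 h and -0.79 to 21 h. The step to 12 h had an edgeR adjusted p of 0.114 without replicate 1 of 12 h and 0.0817 without replicate 1 of 6 h. The step from 12 h to 15 h had edgeR adjusted p of 0.06 without replicate 2 of 12 h and 0.0275 without replicate 1 of 15 h.

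**Figure D1:**
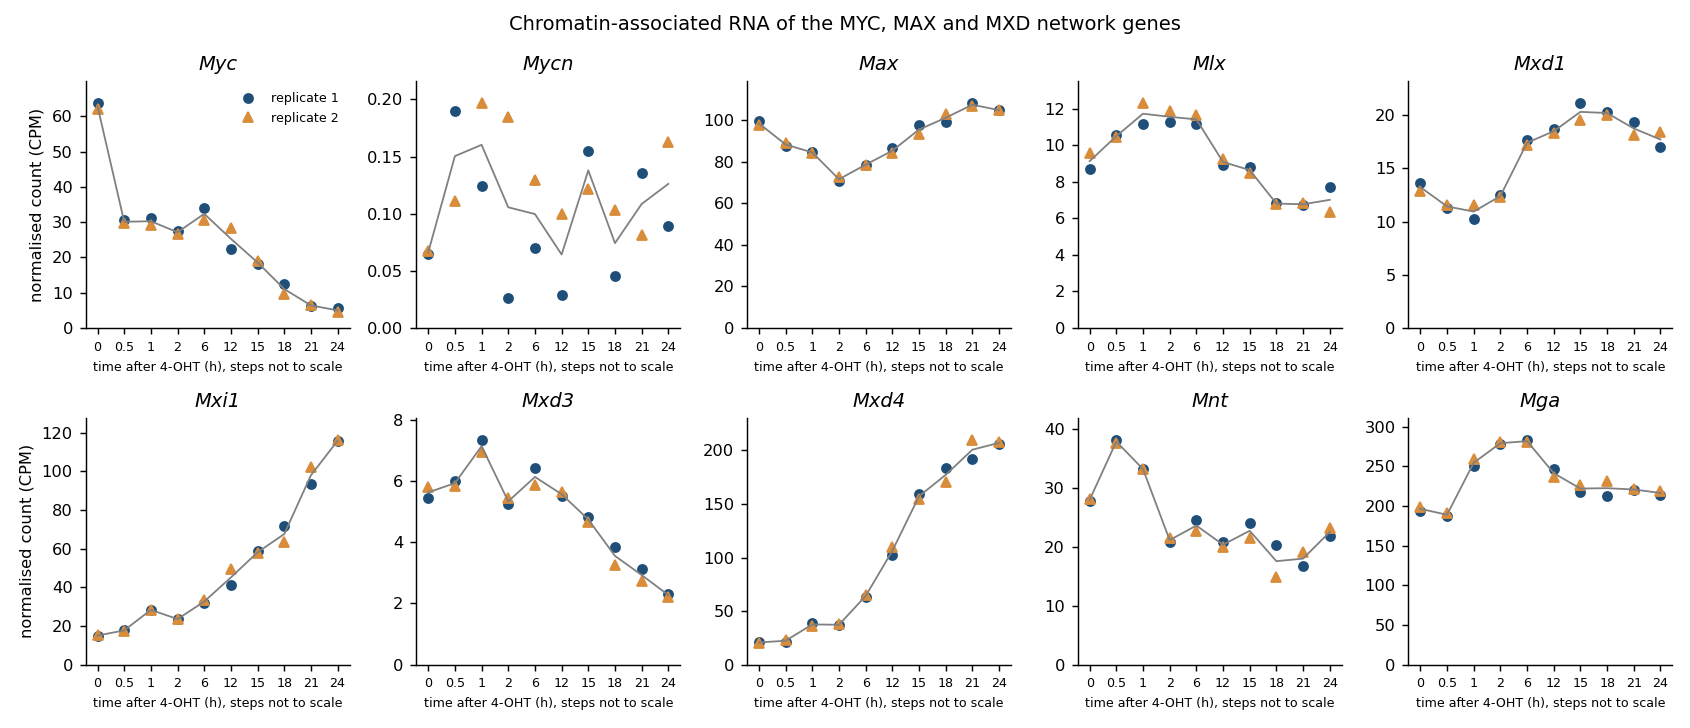
Level of each of the 10 members in CPM (vertical axes, each from 0) against time after 4-OHT in hours (horizontal axes, steps not to scale). Circles are replicate 1, triangles replicate 2 and lines the means; Myc drops from 62.9 to 30.1 CPM in 30 min and to 4.97 CPM at 24 h, while Mxd4 climbs from 20.7 to 207 CPM and Mxi1 from 15.0 to 116 CPM.

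Mycn, the MYC gene of neural and early progenitor cells, gave 1 to 8 counts per library and was at or near the floor of 3 counts throughout, so no change could be detected at this depth. Mycl, the other MYC gene, had at most 1 count in any library.

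Pvt1, a long non-coding RNA gene that starts 47.6 kb downstream of Myc on the same strand, showed no passing change in the first 30 min. Pvt1 stood at 1017 and 1000 CPM at 0 h and at 1028 and 1042 CPM at 30 min, a log2 difference of 0.04 with an edgeR adjusted p of 0.597. It was at 1060 and 1049 CPM at 1 h, 797.7 and 796.9 CPM at 2 h and 566.7 and 567.7 CPM at 6 h. Thus Pvt1 was falling between 1 h and 6 h, with log2 differences of -0.40 and then -0.49 per step. Over that span the Myc steps were -0.16 and 0.25 and did not pass, and the difference between the genes was not tested. Reads over the whole gene body were counted, which spans 340.1 kb in Pvt1 and 4.98 kb in Myc. The part of gene length in the timing of these counts was not tested. By 24 h Pvt1 was at 208.9 and 197.8 CPM, a log2 difference of -2.31 ± 0.0392 (SE) with an edgeR adjusted p of 3.98e-22.

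Max (chr12:76937269-76962201, minus strand), the partner that both sides of the network need, moved little. It stood at 99.4 and 97.4 CPM at 0 h, dipped to 70.5 and 72.6 CPM at 2 h and returned to 97.5 and 93.4 CPM by 15 h. At 24 h both libraries were at 104.8 CPM. The dip at 2 h was -0.46 ± 0.038 (SE) on the log2 scale, with an edgeR adjusted p of 1.06e-09. Its later differences were 0.13 at 21 h, which passed, and 0.09 by 24 h, which did not. The call at 21 h was lost without any 1 of the 4 libraries compared (edgeR adjusted p 0.0131 to 0.044). The differences at 21 h and 24 h turned to -0.108 and -0.167 when libraries were scaled by their totals alone. The call at 30 min, a log2 difference of -0.16, was lost without either library of 0 h, 30 min, 1 h or 6 h, with edgeR adjusted p up to 0.0791.

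Mxd4 (chr5:34173883-34187720, minus strand), a MAX-binding repressor associated with withdrawal from the cell cycle, rose the most. It was at 20.9 and 20.4 CPM at 0 h and 21.3 and 23.2 CPM at 30 min, then at 38.6 and 36.4 CPM at 1 h and 36.6 and 37.8 CPM at 2 h. It went on to 63.3 and 64.9 CPM at 6 h, 102.8 and 109.7 CPM at 12 h and 159.4 and 155.0 CPM at 15 h. Every induced library lay above the uninduced pair, those of 30 min by little.

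The last Mxd4 values were 183.4 and 170.9 CPM at 18 h, 191.8 and 209.6 CPM at 21 h and 206.3 and 207.9 CPM at 24 h. The log2 difference from 0 h was 0.11 at 30 min, which did not pass (edgeR adjusted p = 0.286), then 0.86 ± 0.0591 (SE) at 1 h and 0.85 at 2 h. It was 1.63 at 6 h, 2.36 at 12 h, 2.93 at 15 h and 3.32 ± 0.0568 (SE) at 24 h, a 10.0-fold higher level with an edgeR adjusted p of 4.47e-22. The rise came in 2 stretches, since the step from 1 h to 2 h was -0.01 and did not pass while the steps on either side did. The last step that passed here, 0.17 from 15 h to 18 h, was lost without any 1 of 11 libraries, with log2 differences of 0.121 to 0.193. The next step, from 18 h to 21 h, passed with DESeq2 (adjusted p = 0.00427).

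Mxi1 (chr19:53310518-53375810, plus strand), an MXD-family repressor known as MAX interactor 1, rose along a similar path. Its libraries held 14.7 and 15.4 CPM at 0 h, 18.1 and 17.3 CPM at 30 min, 28.4 and 28.2 CPM at 1 h and 23.4 and 23.7 CPM at 2 h. They held 31.8 and 33.5 CPM at 6 h, 41.05 and 49.2 CPM at 12 h and 58.6 and 57.7 CPM at 15 h. No induced library overlapped the uninduced pair.

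The Mxi1 level reached 71.8 and 63.4 CPM at 18 h, 93.6 and 102.5 CPM at 21 h and 115.6 and 116.2 CPM at 24 h. Its log2 difference from 0 h was 0.23 at 30 min (edgeR adjusted p = 0.0675), 0.91 ± 0.0791 (SE) at 1 h, 1.12 at 6 h, 1.95 at 15 h and 2.95 ± 0.0751 (SE) at 24 h. The 24 h level was 7.71-fold higher, with an edgeR adjusted p of 3.31e-19. The step from 18 h to 21 h was 0.54, with an edgeR adjusted p of 3.41e-06. That of Mxd4 was 0.18 and narrowly missed in edgeR (adjusted p = 0.0105) but passed with DESeq2 (adjusted p = 0.00427). The difference between the genes was not tested. The step back of Mxi1 from 1 h to 2 h, -0.27, narrowly missed the threshold at an edgeR adjusted p of 0.0101. It passed without the libraries of 12 h and 18 h (edgeR adjusted p = 3.07e-05).

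No call of Mxd4 or Mxi1 against 0 h was lost when any 1 library was left out. From 6 h both were called, and they were the 2 of 9 members called there, beside 20.1% of all genes. With Myc the count was 3 at 12 h (23.1% of genes), 15 h (28.4%), 18 h (36.6%) and 21 h (39.5%), and Mxd3 made it 4 at 24 h (40.1%).

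Mxd1 (chr6:86647042-86669161, minus strand), a repressor that rises in many differentiating cells, first dipped and then rose without reaching 2-fold. It was at 13.6 and 12.9 CPM at 0 h and 10.3 and 11.6 CPM at 1 h. It reached 17.7 and 17.2 CPM at 6 h and 21.1 and 19.5 CPM at 15 h, and stood at 17.05 and 18.4 CPM at 24 h. All libraries from 6 h lay above both uninduced ones. The log2 difference was -0.28 ± 0.0711 (SE) at 1 h (edgeR adjusted p = 0.0026), 0.40 ± 0.0674 (SE) at 6 h and 0.62 ± 0.0671 (SE) at 15 h. The dip was lost without replicate 1 of 0 h or of 1 h, with edgeR adjusted p of 0.0381 and 0.0845. The only step of Mxd1 that passed was 0.49 from 2 h to 6 h, with an edgeR adjusted p of 6.03e-06.

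Mxd3 (chr13:55325168-55329823, minus strand), unlike other MXD genes known for its expression in dividing cells in S phase, was the antagonist that fell by more than 2-fold. It stood at 5.46 and 5.81 CPM at 0 h, 7.34 and 6.95 CPM at 1 h and 5.24 and 5.435 CPM at 2 h. It was at 4.84 and 4.66 CPM at 15 h, 3.86 and 3.255 CPM at 18 h, 3.12 and 2.74 CPM at 21 h and 2.325 and 2.225 CPM at 24 h. The libraries of 15 h and later all lay below both uninduced ones.

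The rise of Mxd3 at 1 h was 0.345 ± 0.0859 (SE) on the log2 scale with an edgeR adjusted p of 0.00219. It was lost with DESeq2 and without replicate 1 of 0 h or of 1 h (edgeR adjusted p 0.034 and 0.0347). The fall passed from 18 h, at -0.66, and reached -1.31 ± 0.112 (SE) at 24 h, 2.48-fold lower with an edgeR adjusted p of 5.43e-10. Without replicate 1 of 21 h, Mxd3 was also called at 21 h, where its change was -0.95. The Mxd3 gene overlaps Prelid1 on the opposite strand. Prelid1 differed from 0 h by -0.12 on the log2 scale at 24 h (edgeR adjusted p = 0.185), and whether the counting used strand is not given in the sources used here.

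Mnt (chr11:74830920-74845725, plus strand), the widely expressed repressor that balances MYC in dividing cells, rose at the first time point sampled and then turned. Its libraries held 27.8 and 28.1 CPM at 0 h, 38.0 and 37.6 CPM at 30 min and 33.1 and 33.2 CPM at 1 h. They held 20.8 and 21.4 CPM at 2 h and 20.3 and 14.8 CPM at 18 h, the pair that differed most, and 21.8 and 23.2 CPM at 24 h. Both libraries of 30 min and of 1 h lay above the uninduced pair, and all libraries from 2 h lay below it.

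The Mnt difference at 30 min was 0.44 ± 0.0882 (SE) on the log2 scale with an edgeR adjusted p of 0.0015. Leaving out any 1 of the 4 libraries compared gave log2 differences of 0.43 to 0.45 and edgeR adjusted p of 0.0176 to 0.024, so the call rested on all 4. Of the 9 members tested, 3 passed the adjusted p at 30 min, Myc and Max lower and Mnt higher, where 8.44% of all genes passed in either direction. From 1 h to 2 h Mnt fell, with a log2 difference of -0.65 ± 0.0917 (SE) and an edgeR adjusted p of 1.27e-05. It stood at -0.66 at 18 h and -0.31 at 24 h relative to 0 h. The call at 24 h was lost without either library of 0 h or of 24 h (edgeR adjusted p up to 0.0492).

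Mga (chr2:119897228-119969581, plus strand), the large MAX partner of the variant Polycomb complex PRC1.6, was highest from 2 h to 6 h. It was at 194.1 and 198.6 CPM at 0 h, 186.9 and 190.9 CPM at 30 min and 249.8 and 259.0 CPM at 1 h. It peaked at 278.2 and 280.0 CPM at 2 h and 282.9 and 280.5 CPM at 6 h, and came to 213.3 and 219.4 CPM at 24 h. All libraries from 1 h lay above both uninduced ones. The log2 difference was 0.37 at 1 h and 0.52 ± 0.0391 (SE) at 6 h, with an edgeR adjusted p of 1.49e-10 at 6 h. The remaining differences of 0.17 (21 h) and 0.14 (24 h) became -0.0648 and -0.118 when libraries were scaled by their totals alone.

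Mlx (chr11:101087277-101092207, plus strand), the partner of the glucose-responsive factors, rose modestly and then fell. It stood at 8.68 and 9.57 CPM at 0 h, 11.2 and 12.3 CPM at 1 h and 11.2 and 11.6 CPM at 6 h. It was at 6.81 and 6.79 CPM at 18 h and 7.69 and 6.32 CPM at 24 h. The log2 difference was 0.36 ± 0.0798 (SE) at 1 h and -0.42 ± 0.0869 (SE) at 18 h, with edgeR adjusted p of 7.91e-04 and 1.58e-04. The calls of Mlx at 1 h, 2 h and 6 h were each lost without replicate 1 of 0 h (edgeR adjusted p 0.0246 to 0.0321).

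Mlx overlaps Psmc3ip on the opposite strand, and Psmc3ip fell by 24 h (log2 difference -1.55, edgeR adjusted p = 4.35e-12); its part in the Mlx counts was not tested. Mlxip, which encodes the MLX partner MondoA, rose from 103.7 and 108.0 CPM at 0 h to 240.9 and 238.7 CPM at 24 h. That is a log2 difference of 1.18 ± 0.0718 (SE) with an edgeR adjusted p of 1.61e-12. Mlxipl, which encodes the partner ChREBP, had at most 4 counts in any library.

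**Figure D2:**
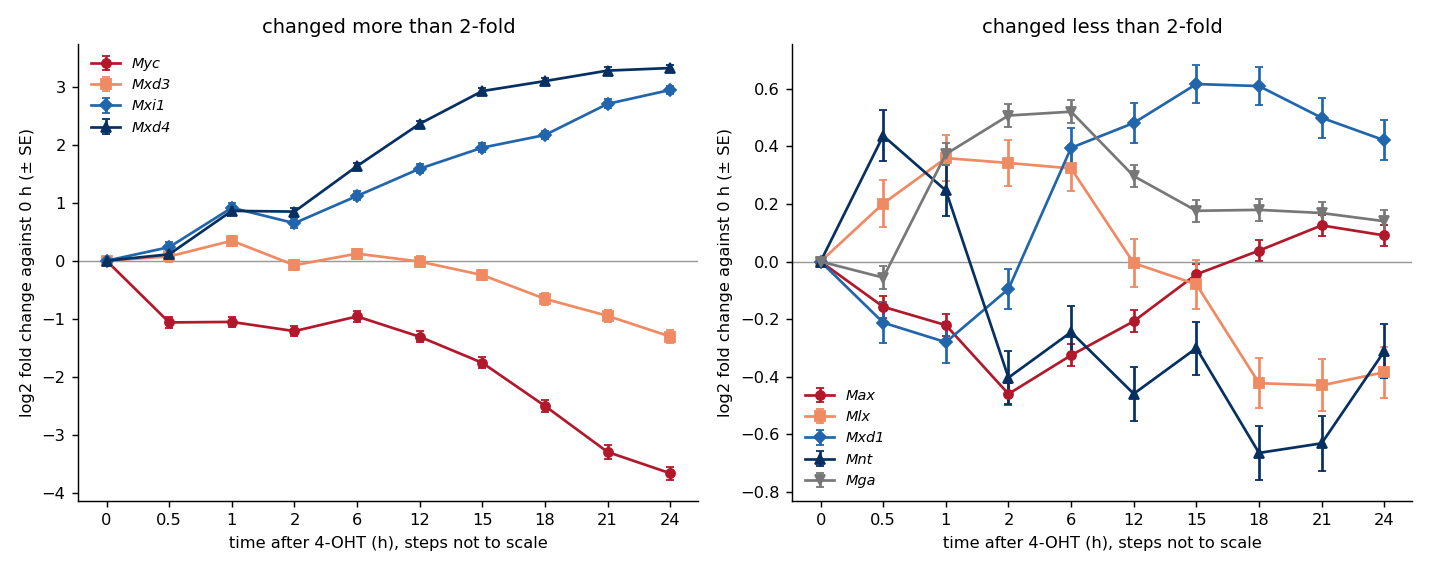
Log2 fold change of the 9 tested members against 0 h (vertical axes, error bars are the SE of the edgeR fit) over time after 4-OHT in hours (steps not to scale). On the left Mxd4 ends at 3.32, Mxi1 at 2.95, Mxd3 at -1.31 and Myc at -3.67; on the right, on a narrower scale, Max, Mlx, Mxd1, Mnt and Mga stay between -0.66 and 0.62.

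Placed in order of their first passing change, the members fell into 2 sets. Myc, Max and Mnt passed at 30 min, the last 2 with calls that single libraries could end. Mga, Mxd4, Mxi1, Mlx, Mxd1 and Mxd3 first passed at 1 h, the last 3 also with calls that single libraries could end. Thus all 9 tested members had passed at 30 min or 1 h. Of all genes 8.44% passed at 30 min and 36.3% at 1 h, and the share passing at either was not computed. In this order of passing, the drop of Myc preceded the rise of Mxd4 and Mxi1 by 1 sampled time point. Their gene bodies span 4.98 kb (Myc), 13.8 kb (Mxd4) and 65.3 kb (Mxi1), and the part of length in this order was not tested. At 30 min Mxd4 was at 0.11 ± 0.0627 (SE) and Mxi1 at 0.23 ± 0.0839 (SE) on the log2 scale, and in the fit without the libraries of 12 h and 18 h Mxi1 passed at 30 min as well (edgeR adjusted p = 0.00255).

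The time at which a profile crossed the midpoint between 0 h and its extreme gives a different order, and that order depends on the scale. On log2 CPM, Mxd4 crossed at 6.25 h (6.47 h and 6.10 h in the 2 replicates taken alone), Mxi1 at 10.6 h (12.0 h and 9.66 h), Myc at 15.3 h (14.4 h and 15.6 h) and Mxd3 at 17.9 h (19.1 h and 17.2 h). On linear CPM, Myc crossed at 26.5 min (26.4 and 26.6 min), because most of its lost CPM was lost at once, while Mxd4 crossed at 12.4 h and Mxi1 at 17.3 h. Pvt1 crossed at 15.1 h on log2 CPM and 5.33 h on linear CPM. Mxd3 stayed at 17.0 h on linear CPM.

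Between successive time points, 3 of 9 members passed from 30 min to 1 h, namely Mga (0.43), Mxd4 (0.75) and Mxi1 (0.68), and 32.0% of all genes passed. From 1 h to 2 h it was again 3, Max (-0.24), Mnt (-0.65) and Mxd3 (-0.42), beside 22.3% of genes. At this step Mga (0.13, edgeR adjusted p = 0.0109) and Mxi1 (-0.27, edgeR adjusted p = 0.0101) narrowly missed. With DESeq2 Mga passed (adjusted p = 0.00391) and Mxd3 did not (adjusted p = 0.0107). From 2 h to 6 h 4 members rose, Max (0.13), Mxd1 (0.49), Mxd4 (0.78) and Mxi1 (0.47), beside 34.4% of genes.

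From 6 h to 12 h 5 members passed, Mga (-0.22), Mlx (-0.33) and Myc (-0.35) lower and Mxd4 (0.73) and Mxi1 (0.47) higher, beside 27.5% of genes. From 12 h to 15 h 4 passed, Myc lower at -0.45 and Max (0.16), Mxd4 (0.56) and Mxi1 (0.36) higher, beside 19.6%. From 15 h to 18 h 5 passed, Mlx (-0.34), Mnt (-0.36), Mxd3 (-0.41) and Myc (-0.74) lower and Mxd4 (0.17) higher, beside 29.1%. From 18 h to 21 h Myc (-0.79) and Mxi1 (0.54) passed, beside 12.4%. From 21 h to 24 h edgeR passed no member and DESeq2 likewise 0, where 8.63% of genes passed and 4 members had an unadjusted edgeR p under 0.05. Of the 26 passing steps, 11 were lost without some single library, among them all but 1 of the 5 from 15 h to 18 h.

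The summed level of the 6 antagonist genes per kb of gene body, set beside that of Myc in the same library, puts both sides on 1 scale. This is a comparison of nascent RNA and not of proteins. At 0 h Myc stood at 12.6 CPM per kb and the antagonists together at 8.13 CPM per kb ± 0.0731 (SD, n = 2), and at 30 min at 6.04 and 8.84 CPM per kb. At 24 h they stood at 0.997 and 22.5 CPM per kb ± 0.242 (SD, n = 2).

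The log2 ratio of Myc to the summed antagonists was 0.66 and 0.61 in the uninduced libraries and -0.52 and -0.58 at 30 min. The 2 h libraries gave -0.85 and -0.92, those of 6 h -0.91 and -1.04, those of 15 h -2.39 and -2.28, and those of 24 h -4.33 and -4.69. On this measure the ratio was above 0 in both uninduced libraries and below 0 in all 18 induced ones, but the time at which it crossed 0 depended on how the antagonists were combined. Against the 4 MXD genes only, the mean ratio stayed above 0 through 2 h (0.19) and was -0.16 at 6 h. Against the mean of the 6 log2 values it stayed above 0 through 18 h (0.29), and with raw counts not divided by length it was below 0 already at 0 h (-2.15). With 2 libraries against 2, an exact permutation test cannot go below a two-sided p of 0.333, so none was run on the ratio. The summed antagonists went from 0.645 times to 22.75 times the Myc level per kb, a log2 change of -5.14 in the ratio. The same levels were 0.280 and 18.2 times for the 4 MXD genes, 0.0825 and 1.92 times for the mean of log2 values, and 4.435 and 117.8 times for raw counts. The ratio at 24 h was lower than at 0 h in each of these, while which side was higher at a given time was not fixed.

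**Figure D3:**
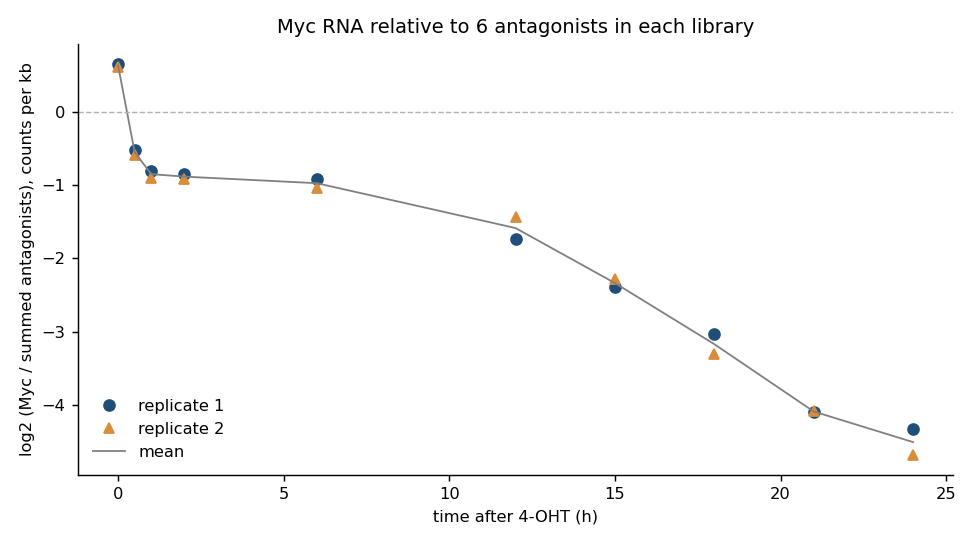
Log2 ratio of Myc to the 6 summed antagonist genes, per kb of gene body, in each library (symbols) and on average (line) against time after 4-OHT in hours (to scale). Circles are replicate 1 and triangles replicate 2; the ratio falls from 0.63 at 0 h to -0.55 at 30 min, lies between -0.85 and -0.97 from 1 h to 6 h and reaches -4.51 at 24 h.

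The make-up of the antagonist sum also changed. At 0 h Mga gave 33.4% of it, Mnt 23.2%, Mxd4 18.4%, Mxd3 14.9%, Mxd1 7.36% and Mxi1 2.83%. At 15 h Mxd4 alone gave 60.5%, and at 24 h Mxd4 gave 66.4% ± 0.361 (SD, n = 2), Mga 13.3%, Mxi1 7.88%, Mnt 6.74%, Mxd1 3.55% and Mxd3 2.17%. On this measure Mga and Mnt, which together led in uninduced cells, came behind Mxd4 in both libraries of 24 h. These shares depend on division by the gene body, and shares per exon length were not computed. Exons cover 6823 of 65293 bases of Mxi1 and 8483 of 13838 bases of Mxd4. Without division by length, Mga stood at 216.4 CPM and Mxd4 at 207.1 CPM at 24 h.

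**Figure D4:**
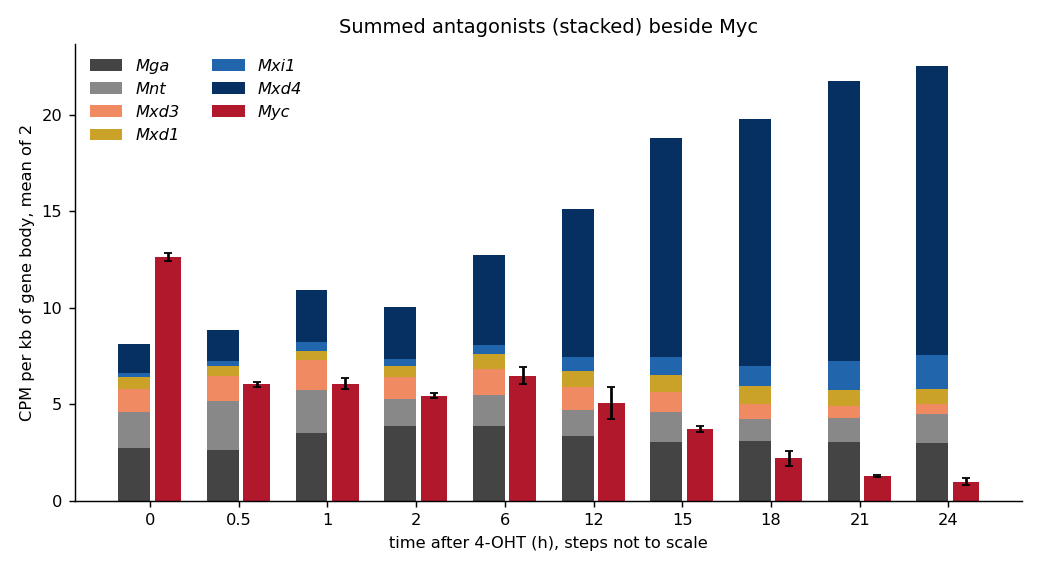
Stacked mean levels of the 6 antagonist genes beside Myc (bars from 0, in CPM per kb of gene body, mean of 2 libraries, error bars on Myc are the SD) against time after 4-OHT in hours (steps not to scale). The stack grows from 8.13 to 22.5 CPM per kb, with Mxd4 growing from 1.49 to 15.0, while the Myc bar shrinks from 12.6 to 0.997 CPM per kb.

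A list of 65 genes known to be activated by MYC, most of them for ribosome and nucleotide production, was followed beside the network. Slc7a5 was listed at 0 in every library, and 63 of the 65 genes were tested. At 30 min their median log2 difference was 0.10, against 0.01 over all genes tested, and 1 passed lower and 6 passed higher. The genes passing lower then numbered 19 (1 h), 48 (2 h), 53 (6 h), 57 (12 h) and 61 (24 h) of 63, beside 17.1%, 23.8%, 27.3%, 29.5% and 36.1% of all genes. Over the same time points the list median was -0.12, -0.53, -0.66, -1.01 and -2.24, while that of all genes stayed between -0.01 and 0.03. More than 2-fold lower were 6 genes at 2 h (Hk2, Nolc1, Rrs1, Slc19a1, Slc29a2 and Tcof1), 32 at 12 h and 57 at 24 h, beside 6.91%, 9.92% and 20.1% of all genes.

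The largest falls in that list at 24 h among expressed genes were those of Srm, which encodes spermidine synthase, Pprc1, a coactivator of the PGC-1 family, Slc29a2, a nucleoside transporter, and Polr1b, a subunit of RNA polymerase I. Srm went from 21.1 and 21.8 CPM at 0 h to 4.94 and 4.98 CPM at 12 h and 0.686 and 0.543 CPM at 24 h, a log2 difference of -5.125 ± 0.114 (SE). Polr1b went from 83.1 and 80.4 CPM through 93.2 and 93.8 CPM at 30 min to 5.13 and 5.10 CPM at 24 h, a difference of -4.00 ± 0.0671 (SE). Pprc1 changed by -4.48 and Slc29a2 by -4.33. In all 4 the change at 30 min was above 0, between 0.05 and 0.19 on the log2 scale, when Myc had already fallen, and only that of Polr1b passed (edgeR adjusted p = 0.0075).

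Against the direction of their list, 2 genes were more than 2-fold higher at 24 h, named here after their values were seen. These were Tert, the telomerase reverse transcriptase (log2 difference 2.38), and Tfrc, the transferrin receptor (2.35). Both were above 2-fold by 2 h, at 1.32 and 1.15.

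**Figure D5:**
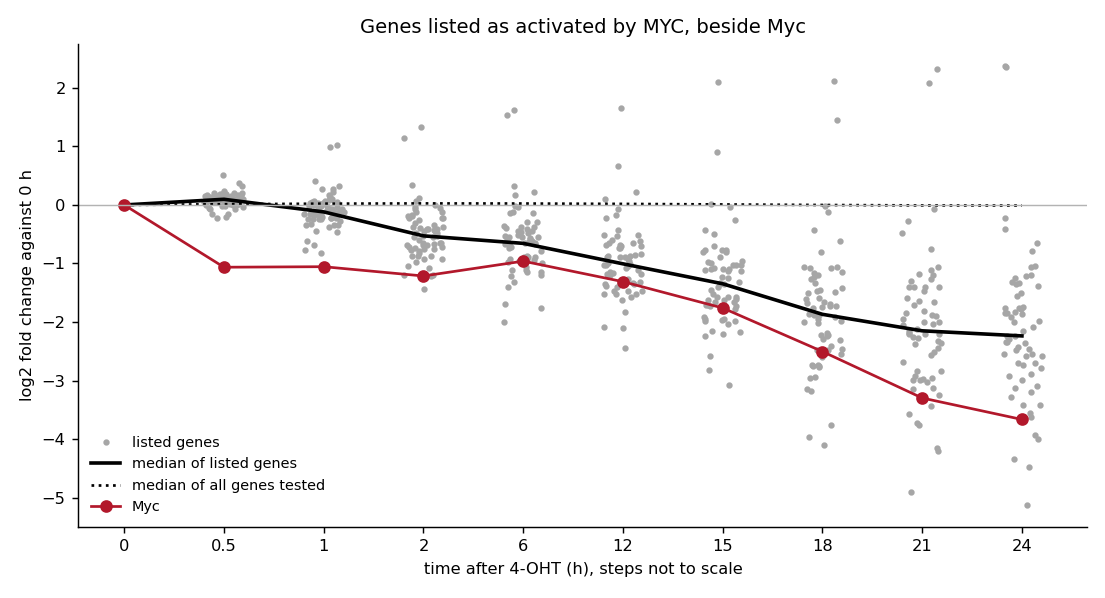
Log2 fold change against 0 h (vertical axis) of the 63 tested genes activated by MYC (grey points), their median (black line), the median of all genes tested (dotted line) and Myc (red) over time after 4-OHT in hours (steps not to scale). Myc lies at -1.06 at 30 min while the list median is 0.10; the list median reaches -2.24 and Myc -3.67 at 24 h.

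Of 7 genes that MYC is known to repress, 6 were tested, and they did not move one way. At 24 h 3 were more than 2-fold higher, namely Cdkn1b, the CDK inhibitor p27 (12.6 and 12.7 CPM at 0 h, 73.9 and 68.2 CPM at 24 h, log2 difference 2.49), Gadd45a, a growth-arrest gene (2.37), and Cdkn2c, a CDK inhibitor (1.05). Lower by more than 2-fold were Ndrg1, a stress- and differentiation-induced gene, at -2.42, and Cdkn1a, the CDK inhibitor p21, at -2.37. Ndrg1 was called lower already at 30 min, where it went from 77.2 and 77.6 CPM to 27.8 and 30.9 CPM. The median of the 6 was 0.26 at 24 h, when 40.1% of all genes were called.

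The corepressor through which the MXD proteins and MNT act was followed as 15 genes of the SIN3 complex, 14 of them tested. At 24 h 6 passed lower, 3 passed higher and 5 did not pass, with a median log2 difference of -0.14. Over all genes 36.1% passed lower and 35.4% higher, so 9 of 14 passing was near the background, and 3 of 14 called was under the 40.1% of all genes. Called were Arid4b (2.04) and Arid4a (1.596), which encode DNA-binding subunits, and Rbbp7 (-1.69), a histone-binding subunit. Arid4b rose from 271.1 and 279.3 CPM at 0 h to 1147 and 1123 CPM at 24 h.

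Among 10 tested genes of PRC1.6, the complex that MGA belongs to, 6 passed lower and 3 higher at 24 h, with a median of -0.35, beside 36.1% and 35.4% of all genes. The 4 called of 10 were near the 40.1% called over all genes. More than 2-fold lower were Tfdp1, the E2F dimerisation partner (-2.60), Wdr5, a shared chromatin scaffold (-1.92), L3mbtl2, a histone reader (-1.46), and Cbx3, a heterochromatin protein (-1.06). Thus Mga kept its level within 1.435-fold of 0 h at every time point while Tfdp1 went from 514.2 and 513.9 to 86.6 and 82.5 CPM.

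Of 15 tested MYC cofactor genes, 9 passed lower at 2 h and 11 at 24 h, when 2 passed higher, with medians of -0.19 and -0.63. Of all genes 23.8% passed lower at 2 h and 36.1% at 24 h. Called lower at 24 h were 3 of the 15, near the 20.1% of all genes called lower. These were Kat2a, a histone acetyltransferase (-2.41), and the ATPase genes Ruvbl1 (-1.42) and Ruvbl2, which went from 41.5 and 39.55 CPM at 0 h to 9.57 and 10.7 CPM at 24 h. Of 16 listed genes that act on the stability of MYC protein, 15 were tested, and Fbxw7 was listed at 0 in every library. Of the 15 tested, 9 passed lower and 6 higher at 24 h, and 8 were called, beside 71.5% of all genes passing and 40.1% called. Here the called genes were higher for Fbxo32, a ubiquitin ligase subunit (3.50), and Pim1, a kinase (2.57), and lower for Usp36, a nucleolar deubiquitinase (-2.20), and Aurka, a mitotic kinase (-1.79), among others. Usp36 passed by 1 h, at -0.51, and Aurka at 30 min, at -0.26.

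The genes whose log2 CPM followed that of Myc most closely over the 20 libraries, by Pearson correlation among 12055 genes with a mean of at least 1 CPM, were Gtse1 (r = 0.981), Traip (0.979), Spry4 (0.977), Etv5 (0.976) and Nsl1 (0.973). These points share libraries, scaling and a time order, and the values are a description. Gtse1 has a role in G2 and M phase, Traip in replication stress, and Nsl1 in the kinetochore, while Spry4 and Etv5 are a feedback inhibitor and an effector of receptor tyrosine kinase signalling. Spry4 resembled Myc also in its first drop, from 52.2 and 51.6 CPM to 18.0 and 17.8 CPM at 30 min, a log2 difference of -1.54, but went on to -7.07 at 24 h. By Spearman correlation the ranks of the 5 among the same genes ran from 48 to 1188. Within the network the values with Myc were 0.915 for Mxd3, 0.773 for Mlx, 0.561 for Mnt, 0.0962 for Mga, -0.577 for Mxd1, -0.601 for Max, -0.851 for Mxd4 and -0.927 for Mxi1, and Pvt1 stood at 0.931.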

How the data were processed

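Chromatin-associated RNA was sequenced from 20 libraries of B3 cells at 10 time points. The authors deposited 1 table of raw read counts per gene for all libraries. Per the labels and the study's methods, reads were aligned to GRCm38 (mm10) with STAR and counted with featureCounts, introns included, and CASAVA 2.17 is named in the submitters' processing notes. The annotation and the strand setting are not given in the sources used here. Counting of introns lets long genes gather more counts, so levels are compared between genes per kb of gene body. Where values not divided by length are set side by side, the text says so.

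Positions come from GENCODE M21 (GRCm38), which holds 55240 of the 56239 identifiers, and promoter windows from RefSeq (GRCm38.p6). Besides Mxd3 and Mlx, Mxd4 overlaps Gm42846 and Mxi1 overlaps AC133451.2 and Gm10197, all on the opposite strand. On the same strand Max overlaps Gm47218 and Mxd1 overlaps Gm44292. The part of these genes in the counts was not tested. Genes with at least 10 counts in 2 libraries were kept. CPM used TMM factors from edgeR 4.0.16 in R 4.3.3, with a prior count of 2 on the log2 scale. One quasi-likelihood model with time point as a factor was fitted to all genes, and p-values were adjusted by Benjamini-Hochberg over all of them. "Passed" means an adjusted p under 0.01, and "called" also a change of more than 2-fold, the thresholds of the study. The scripts were checked on simulated counts.

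Members and gene lists were chosen with earlier results of these data known. Named were all members, Pvt1, Mycl, Mlxip and Mlxipl, up to 4 called genes per list with the largest change at 24 h and a mean of at least 1 CPM, and the 5 genes most like Myc. Genes named beside the rule were the overlapping genes, the called list genes at 2 h, Cdkn2c, Tert and Tfrc. Alternatives were other scalings and filters, DESeq2 1.42.0, a replicate block, an adjusted p of 0.05, fits of 4 libraries, and fits without each library. A fit without the 12 h and 18 h libraries was added after the data were seen.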

Additional observations from a re-analysis of the deposited data

Results flagged for a closer look

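In 5 of the 9 tested members the change from 0 h passed in both directions, lower at some time points and higher at others, and the difference between the 2 extremes was itself tested in the edgeR fit. The share of all genes that passed in both directions was not computed, while 88.0% of genes passed over the time course. The count of 5 is therefore not read as a trait of the network. Each p below is adjusted over all genes, and each pair of extremes was chosen from these values, so the sizes are descriptions of the turn. In each of the 5, the call against 0 h at 1 of the extremes was not firm: Mnt at 30 min, Mxd3, Mxd1 and Mlx at 1 h, and Max at 21 h were lost when single libraries were left out.

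Mnt turned from 0.44 at 30 min to -0.66 at 18 h, a difference of -1.10 ± 0.093 (SE, edgeR adjusted p = 5.1e-10). Mxd3 turned from 0.345 at 1 h to -1.31 at 24 h, a difference of -1.65 ± 0.108 (SE, edgeR adjusted p = 6.1e-12). Mxd1 went the other way, from -0.28 at 1 h to 0.62 at 15 h, a difference of 0.897 ± 0.0689 (SE, edgeR adjusted p = 1.82e-10). Mlx turned from 0.36 at 1 h to -0.43 at 21 h, a difference of -0.79 ± 0.0879 (SE, edgeR adjusted p = 4.75e-08). Max turned from -0.46 at 2 h to 0.13 at 21 h, a difference of 0.586 ± 0.0384 (SE, edgeR adjusted p = 8.56e-12), and its later value lies below 0 under scaling by library totals.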

How the results depend on the processing

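The count of 4 members changed over the time course was the same under every alternative run. Called lower at 21 h were 2 members with library totals alone, in place of 1. The members passing from 1 h to 2 h were 5 at an adjusted p under 0.05, and from 21 h to 24 h 2 at that threshold and 2 with no filter, in place of 3 and 0. In the fit without the 12 h and 18 h libraries, 5 members passed from 30 min to 1 h, 5 from 1 h to 2 h and 2 from 21 h to 24 h. Library totals alone moved the median of all genes at 24 h from -0.01 to -0.27 and reversed Mga at 21 h (-0.0648) and 24 h (-0.118) and Max at 21 h (-0.108) and 24 h (-0.167), the cause of which was not tested.

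With DESeq2, Mxd3 from 1 h to 2 h, Max from 2 h to 6 h, Mlx from 6 h to 12 h, and Mlx and Mxd3 from 15 h to 18 h no longer passed (adjusted p 0.0107 to 0.0373). Mga from 1 h to 2 h, Mxi1 from 15 h to 18 h and Mxd4 from 18 h to 21 h were added (DESeq2 adjusted p 0.00391 to 0.00825). Library totals alone also ended Mga at 18 h (0.0529) and Mxd1 at 24 h (0.163). With only the 4 libraries compared, Mxi1 and Mxd1 passed at 30 min (adjusted p = 0.00252 and 0.00676).

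The midpoint time became 0.441 h for Myc, 17.3 h for Mxi1 and 12.4 h for Mxd4 on linear CPM, and 8.93 h for Mxi1 and 5.46 h for Mxd4 with library totals. The change of the log2 ratio of Myc to the antagonists was -1.66 at 2 h with raw counts, and at 24 h -4.54 with the mean of log2 values, -4.73 with raw counts and -6.02 against the 4 MXD genes only.

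Leaving out 1 library gave 0 to 1 members called lower at 6 h and 1 to 2 at 21 h. The members passing at each step ranged from 3 to 5 (30 min to 1 h), 2 to 5 (1 h to 2 h), 3 to 5 (2 h to 6 h), 3 to 7 (6 h to 12 h), 2 to 5 (12 h to 15 h), 1 to 6 (15 h to 18 h), 2 to 3 (18 h to 21 h) and 0 to 2 (21 h to 24 h). Midpoint times were computed in each replicate series alone, and not with single libraries left out. They were 14.4 h and 15.6 h for Myc and 12.0 h and 9.66 h for Mxi1. Without 1 library of 0 h or of 24 h, the ratio's change at 24 h ranged from -5.32 to -4.96.

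On average, libraries with the same number did not deviate together over 45 pairs of time points (correlation -0.470 to 0.258, mean 0.000992). Such a mean cannot exclude a pairing among only some of the time points. With a replicate block 4 members passed from 1 h to 2 h, Mga being added, 4 from 15 h to 18 h, Mxd4 being lost, and the counts of called members at each time point were as without it.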
